A study of Rattus norvegicus with 12 samples.

Results

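The chaperone and heat shock genes were taken as every named gene whose symbol belongs to the HSP60 and HSP10, HSP70 and HSP110, HSP90, small HSP, CCT, DNAJ, BAG or heat shock factor families, together with Hspbp1 and Hspbap1. The rule found 77 genes among the 18166 named genes of the array, on 83 probes before 1 probe was kept for each gene. Of the 2 HSP90 members 1, Hsp90aa1-ps2, is a pseudogene by its symbol. Its mean level (3.61) lay below the median of the probes with no listed gene (4.33). Although the set was proposed as cytosolic, 8 of its members make mitochondrial proteins and 9 make proteins of the endoplasmic reticulum (ER), so these are counted apart below. Hspa1a, Hspa1b, Hsp90aa1, Dnajb6 and Dnajc8 share probes with other genes and were not analysed here, so the usual stress-inducible HSP70 and HSP90 genes are not among the 77.

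The study used primary rat cardiomyocytes, labelled wild type and grown in medium with foetal bovine and horse serum. Cells were left as controls or exposed to SIN-1, a compound that releases peroxynitrite and so puts the cells under nitroxidative stress, for 70 min, 4 h or 8 h. Each of the 4 groups has 3 arrays, described as biological triplicates; the labels do not give the strain, age, SIN-1 dose, or the time or vehicle of the controls. The same 3 control arrays serve all 3 comparisons with control, and p-values measure the spread between these arrays alone.

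Chaperones bind unfolded or partly folded proteins, keep them from aggregating and help them reach their folded form. HSP70 proteins do this in cycles of ATP use that are started by J proteins (DNAJ) and ended by nucleotide exchange factors such as HSP110 and BAG proteins, while HSP60 with HSP10 and the CCT ring enclose a protein in a chamber. In stressed cells the transcription factor HSF1 binds heat shock elements and raises many of these genes, and in heart muscle the small HSPs bind and protect the contractile and cytoskeletal filaments.

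All values are log2 expression levels, and a difference of 1 is a doubling. The median level of the 12 arrays lay between 4.98 and 5.12, and the 3 highest medians belonged to 70 min replicates 2 and 3 and 4 h replicate 3. Arrays of a group correlated at 0.9906 to 0.995. Of 16 cardiomyocyte markers 14 were measured, and 10 of these lay below the median gene (5.75). Myh6 (mean 3.78), Myh7 (3.57) and Ryr2 (4.20) lay below the median of the probes with no listed gene (4.33), while Atp2a2 (9.73), Pln (7.94) and Tnnc1 (7.14) lay above the median gene. Of 10 fibroblast markers 2, Tcf21 (4.83) and Pdgfra (5.69), lay below the median gene, and the brightest were Fn1 (12.9), Col1a1 (12.8) and Col1a2 (12.5). Levels of different probes are not on 1 scale, so these values do not give the share of any cell type, and in bulk samples fewer cells of a type and less RNA per cell cannot be told apart.

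The regulatory sequences that the family is best known for were looked up first. Promoters from 250 bases before to 50 bases after the start were given by RefSeq (assembly GRCr8) for 64 of the 77 genes, with 65 promoters in all. A heat shock element of 3 units was searched on both strands as GAA, TTC and GAA, or TTC, GAA and TTC, with NN (any 2 bases) between units, which contains the shorter pairs GAANNTTC and TTCNNGAA. It stood in 6 of the 65 promoters (9.23%) and in 267 of all 33469 promoters (0.798%). The pair GAANNTTC stood in 23.1% of the 65 and 8.59% of all promoters, and TTCNNGAA in 20.0% and 8.77%. A match describes the letters of this window and is not a measured binding site. The 6 genes were Hspd1, Hspe1, Hspa8, Hsph1, Dnaja1 and Cct4, and they are shown because they span genes that did and did not pass the test at 70 min. Capitals mark the matches, and positions count from the start base as 0. For Dnaja1 and Cct4, whose matches lie after the start, the match alone is shown.
Hspe1, chr9:64084247-64084294, plus strand, match at -65 to -48: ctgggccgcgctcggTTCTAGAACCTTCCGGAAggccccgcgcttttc
Hspd1, chr9:64084247-64084287, minus strand, match at -242 to -225: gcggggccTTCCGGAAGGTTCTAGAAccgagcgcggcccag
Hspa8, chr8:50080286-50080328, plus strand, match at -213 to -201: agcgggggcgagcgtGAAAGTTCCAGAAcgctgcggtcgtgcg
Hspa8, chr8:50080444-50080486, plus strand, match at -55 to -43: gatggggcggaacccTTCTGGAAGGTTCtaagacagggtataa
Hsph1, chr12:10427317-10427359, plus strand, match at -36 to -24: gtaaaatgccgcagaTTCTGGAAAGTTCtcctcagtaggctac
Dnaja1, chr5:60638413-60638425, plus strand, match at 9 to 21: GAACTTTCCAGAA
Cct4, chr14:101193082-101193094, plus strand, match at 25 to 37: TTCTGGAAGGTTC
Hspd1 and Hspe1 lie head to head on chromosome 9 with starts 290 bases apart, and their promoters share 211 bases. The Hspd1 and Hspe1 matches are therefore the same 18 bases read from either strand, each holding 2 overlapping elements.

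The first comparison asked how the family stood after 70 min of SIN-1. Both HSP60/HSP10 genes rose, 6 of 8 CCT ring genes rose, and of 10 HSP70/HSP110 genes 2 rose. Hspb1 rose while Hspb6 fell, and of 38 J protein genes 1 rose and 3 fell. In limma's moderated test with Benjamini-Hochberg adjustment over all 18166 genes, a gene was called at an adjusted p under 0.05. Of the 77 genes 17 were called (22.1%), against 14.6% of all genes. The 13 that rose made up 16.9% of the 77, against 6.76% of all genes, and 4 fell, against 7.81% of all genes. Brighter genes were called more often: 25.2% of all genes above the median level were called and 11.3% rose. Of the 58 chaperone and heat shock genes above that level, 29.3% were called and 22.4% rose. By location, 3 of 8 mitochondrial genes, 2 of 9 ER genes and 12 of the 60 others (20%) were called, and 15% of the 60 rose. None of the 77 reached a 1.5-fold change with a call, against 4.07% of all genes. The median difference of the 77 from control was 0.05, beside 0.03 over all genes, with a range from -0.48 to 0.54. The 70 min and control arrays did not overlap for 31 of the 77, and for 5779 of all 18166 genes (31.8%). Leaving out the 3 arrays of highest median leaves 1 array at 70 min. The calls of Cct5, Cct6a, Cct7, Dnajc4, Hspa9, Hspb1 and Hspbp1 were then lost and that of Dnajb1 gained. The share of all genes called in that fit is not given here, so the losses are not read as particular to these genes. The differences of the lost genes were then 0.21, 0.32, 0.26, -0.25, 0.23, 0.37 and 0.29, in that order, and that of Dnajb1 was 0.52.

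**Figure D1:**
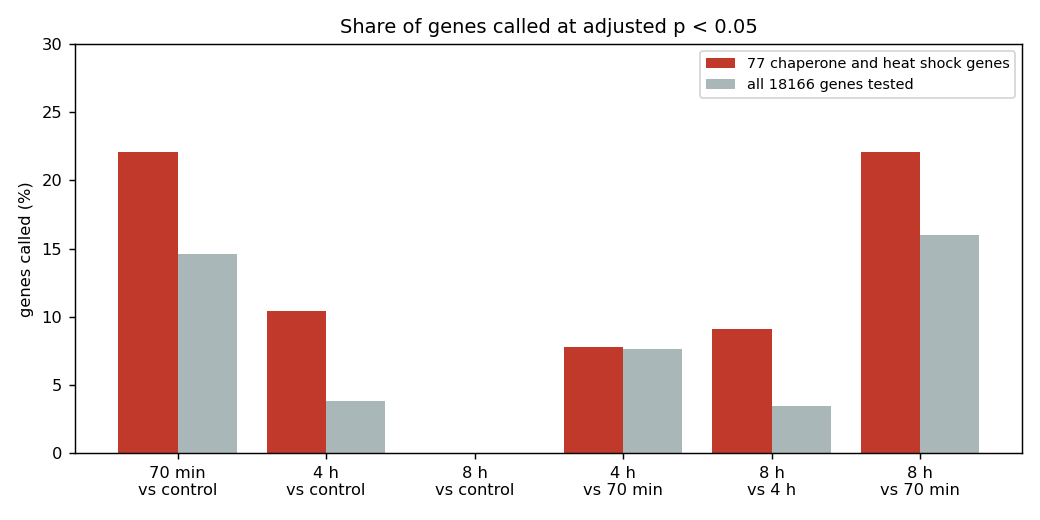
Bars give the percent of genes called at an adjusted p under 0.05 in each of the 6 comparisons of groups, for the 77 chaperone and heat shock genes and for all 18166 genes. The 77 genes reach 22.1% at 70 min against control and 0% at 8 h, beside 14.6% and 0.0275% of all genes.

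Markers of other cell types also moved at 70 min. Of 10 fibroblast markers 4 fell, with differences of -1.42 for Lum, -1.05 for Dcn, -0.51 for Mmp2 and -0.41 for Col3a1, and the log2 of the summed list went from 14.77 to 14.80 in controls to 14.67 to 14.73. Of 14 cardiomyocyte markers 1 rose, the calcium pump gene Atp2a2 (0.52), and the summed list went from 10.45 to 10.58 in controls to 10.78 to 10.84. Levels were summed unlogged, so the brightest gene of a list weighs most. That gene was Atp2a2 here (mean 9.73), Tek among endothelial markers (5.69) and Tagln among smooth muscle markers (12.46). These sums are therefore not results apart from those genes. The median difference of the 14 cardiomyocyte markers was 0.09, and 9 were positive. Of 5 endothelial markers Tek fell by 0.88, of 4 smooth muscle markers Tagln rose (0.13), and of 6 macrophage markers none passed the test. The summed endothelial list lay between 7.08 and 7.21 in controls and 6.75 and 6.98 at 70 min. The smooth muscle list lay between 12.71 and 12.79 in controls and 12.77 and 12.84 at 70 min, and the macrophage list between 8.05 and 8.22 and between 8.06 and 8.09. The part of these differences in the results below was not tested.

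**Figure D2:**
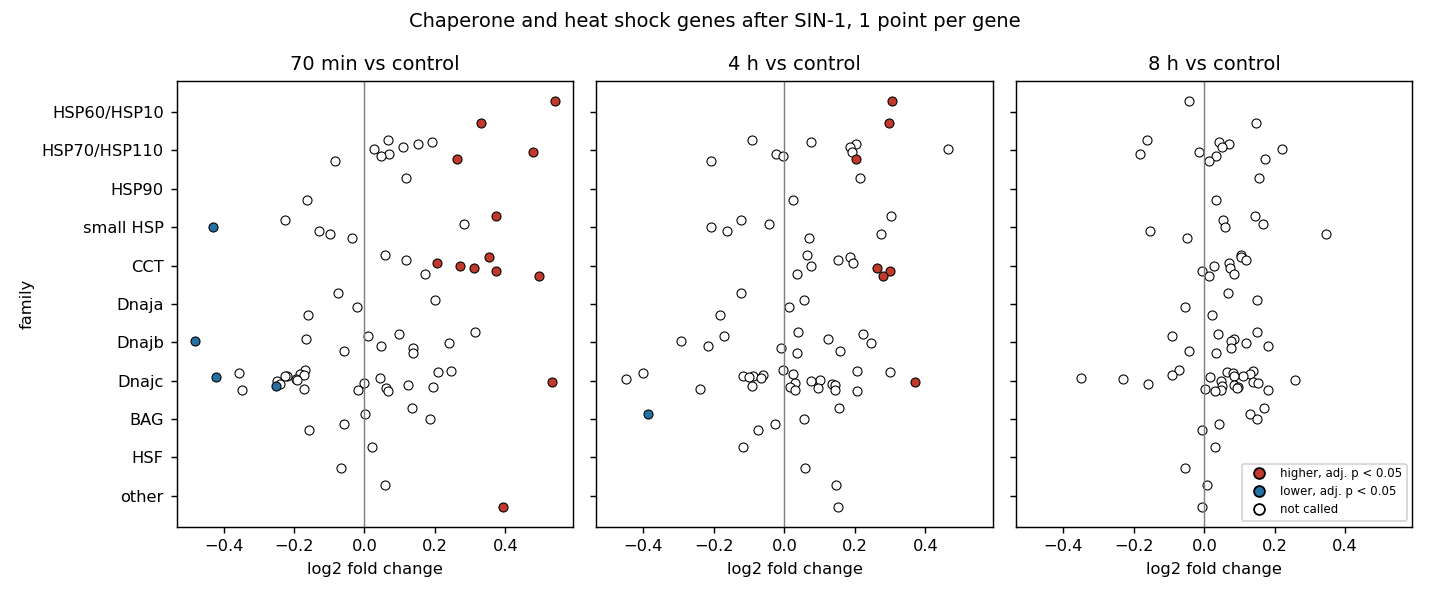
Each point is 1 of the 77 genes, placed by its log2 fold change against control (horizontal axis) and its family (vertical axis) at 70 min, 4 h and 8 h, with filled points for genes called at an adjusted p under 0.05. At 70 min both HSP60/HSP10 genes and 6 CCT genes are called to the right of 0, and at 8 h no gene is called.

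Both genes of the mitochondrial chaperonin rose at 70 min. Hspd1, which encodes HSP60, the barrel in which imported mitochondrial proteins fold, measured 8.96, 8.77 and 8.94 in the controls and 9.46, 9.43 and 9.40 at 70 min. At 4 h it measured 9.12, 9.35 and 9.10, and at 8 h 8.90, 8.83 and 8.81. Each array at 70 min and 4 h lay above each control, and the 8 h arrays lay among the controls. The limma difference was 0.54 ± 0.07 (SE) at 70 min, 1.45-fold (adjusted p = 7.83e-05), and 0.30 ± 0.07 at 4 h (adjusted p = 0.027). At 8 h it was -0.04, with a 95% interval of -0.20 to 0.11. A dimmer probe of Hspd1 gave 0.35 at 70 min (adjusted p = 0.0118 by limma) and 0.34 at 4 h (adjusted p = 0.038).

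Hspe1, which encodes HSP10, the lid of that barrel, measured 9.19, 9.21 and 9.25 in the controls and 9.58, 9.62 and 9.43 at 70 min. It then measured 9.51, 9.45 and 9.58 at 4 h and 9.32, 9.48 and 9.29 at 8 h. All SIN-1 arrays lay above all controls. Hspe1 rose by 0.33 ± 0.07 at 70 min (limma adjusted p = 0.00258) and 0.30 ± 0.07 at 4 h (adjusted p = 0.0191), and the 8 h difference of 0.15 did not pass the test.

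Hspa9 encodes mortalin, the mitochondrial HSP70 that pulls proteins through the inner membrane. Its arrays read 10.98, 10.97 and 10.96 in the controls, 11.20, 11.21 and 11.28 at 70 min, 11.15, 11.19 and 11.18 at 4 h, and 11.05, 11.17 and 11.21 at 8 h. The controls lay close together and below every treated array. Hspa9 rose by 0.26 ± 0.05 at 70 min (limma adjusted p = 0.000749) and 0.20 ± 0.05 at 4 h (adjusted p = 0.0188). The 8 h difference of 0.17, with a 95% interval of 0.08 to 0.27, was not called (adjusted p = 0.489). These 3 genes were the ones called among the 8 mitochondrial members at 70 min and again at 4 h. The 70 min call of Hspa9 was lost without the 3 arrays of highest median (limma adjusted p = 0.066).

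The CCT ring is the cytosolic chaperonin that folds actin and tubulin, and it is built of 8 different subunits. At 70 min 6 of the 8 ring genes rose, and all 8 differences were positive, with a median of 0.29. Tcp1, its alpha subunit, measured 9.06, 8.88 and 9.11 in the controls, 9.48, 9.48 and 9.58 at 70 min, 9.35, 9.23 and 9.32 at 4 h, and 9.13, 8.95 and 9.01 at 8 h. The 70 min and 4 h arrays lay above the controls, and the 8 h arrays overlapped them. Tcp1 rose by 0.50 ± 0.07 at 70 min, 1.41-fold (limma adjusted p = 0.000121), and by 0.28 ± 0.07 at 4 h (adjusted p = 0.0347).

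Cct8, the theta subunit, read 9.71, 9.63 and 9.72 in the controls, 10.16, 10.02 and 9.999 at 70 min, 9.96, 10.01 and 9.99 at 4 h, and 9.60, 9.74 and 9.70 at 8 h. Cct3, the gamma subunit, read 9.52, 9.35 and 9.50, then 9.82, 9.81 and 9.80, then 9.71, 9.54 and 9.68, and at 8 h 9.58, 9.54 and 9.56. For both genes the 70 min arrays lay clear of the controls, and at 4 h this held for Cct8 and also for Cct3. Cct8 rose by 0.37 ± 0.06 at 70 min (limma adjusted p = 0.000238) and 0.30 ± 0.06 at 4 h (adjusted p = 0.00584). Cct3 rose by 0.35 ± 0.06 at 70 min (limma adjusted p = 0.000593).

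Cct7, the eta subunit, read 9.48, 9.48 and 9.54 in the controls, 9.76, 9.84 and 9.83 at 70 min, 9.76, 9.69 and 9.85 at 4 h, and 9.71, 9.52 and 9.49 at 8 h. Its 70 min and 4 h arrays lay above the controls. Cct7 rose by 0.31 ± 0.06 at 70 min (limma adjusted p = 0.0031) and 0.26 ± 0.06 at 4 h (adjusted p = 0.0299). Cct6a rose by 0.27 ± 0.08 (adjusted p = 0.0382) and Cct5 by 0.21 ± 0.05 (adjusted p = 0.0148) at 70 min. Cct2 gave 0.06 (adjusted p = 0.523) and Cct4 0.12 (adjusted p = 0.157). The Cct5 call was lost without 70 min replicate 3 (adjusted p = 0.0534) or control replicate 1 (0.0830). It was also lost with the arrays centred on their medians (0.204) or in a limma fit without an intensity trend (0.110). The Cct6a call was lost when any one of the 6 arrays compared was left out. It was also lost with centred arrays (0.242) and without the trend (0.0968). Of 16 alternative analyses, 11 called Cct5 and 7 called Cct6a.

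**Figure D3:**
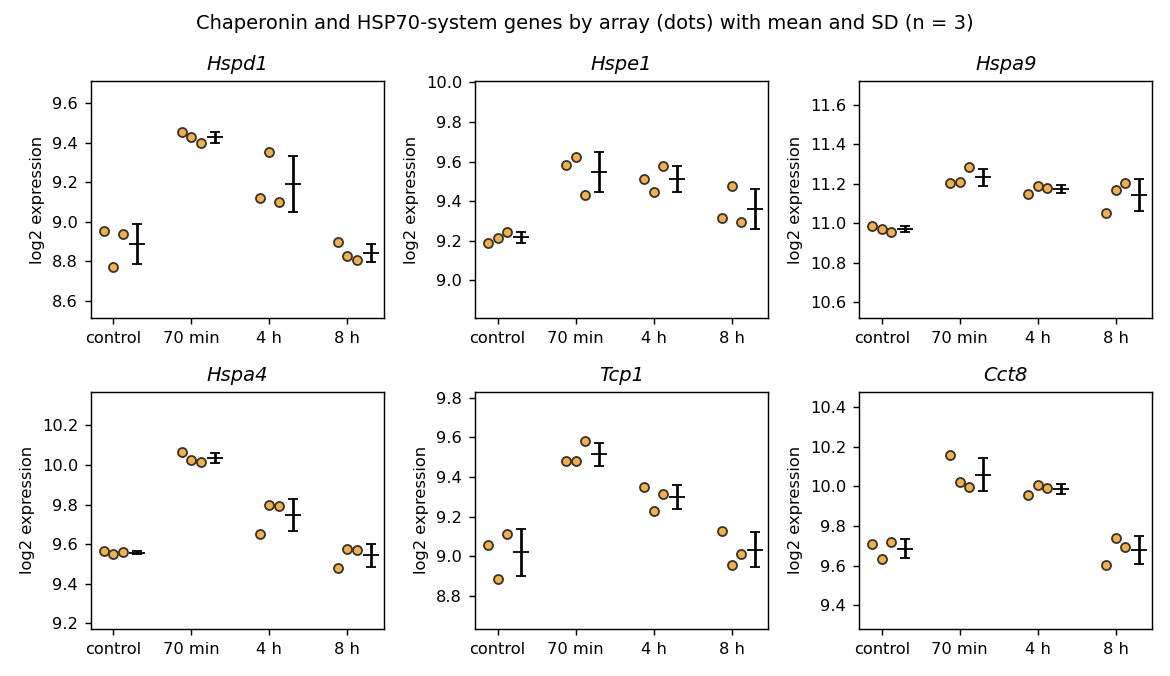
Points are the log2 expression of chaperonin and partner genes on each of the 12 arrays, in 4 groups of 3, and bars mark the group means; each panel spans the same range of log2 units. Hspd1, for example, lies between 9.40 and 9.46 at 70 min and between 8.77 and 8.96 in the controls.

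In the HSP70 and HSP110 family, which holds the mitochondrial Hspa9 and the ER gene Hspa13, 2 of 10 genes rose at 70 min, Hspa4 and Hspa9, and the family's median difference was 0.09. Hspa4 encodes an HSP110-type nucleotide exchange factor that releases ADP from HSP70. It measured 9.56, 9.55 and 9.56 in the controls, 10.06, 10.03 and 10.02 at 70 min, 9.65, 9.80 and 9.79 at 4 h, and 9.48, 9.58 and 9.57 at 8 h. Its arrays were tightly grouped, those at 70 min stood highest, and those at 4 h lay between them and the controls. Hspa4 rose by 0.48 ± 0.06, 1.39-fold (limma adjusted p = 1.52e-05). At 4 h the difference was 0.19 ± 0.06 (adjusted p = 0.0704), and it was called without 4 h replicate 1 (adjusted p = 0.0346).

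Hspbp1, which encodes another exchange factor of HSP70, measured 7.18, 7.29 and 7.42 in the controls, 7.58, 7.82 and 7.66 at 70 min, 7.55, 7.30 and 7.50 at 4 h, and 7.33, 7.32 and 7.22 at 8 h. The 70 min arrays lay above the controls, and the later ones overlapped them. Hspbp1 rose by 0.39 ± 0.09 at 70 min (limma adjusted p = 0.00871). That call was lost without 70 min replicate 2 (adjusted p = 0.0523), without control replicate 1 (0.0585) and without the 3 arrays of highest median (0.268).

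Hspa8, the constitutive HSP70 of the cytosol (HSC70), was bright. It measured 12.58, 12.64 and 12.64 in the controls, 12.68, 12.65 and 12.67 at 70 min, 12.60, 12.63 and 12.62 at 4 h, and 12.64, 12.65 and 12.67 at 8 h. The 70 min arrays lay above the controls by a narrow margin, which turned to -0.0077 with the arrays centred on their medians, and the later arrays overlapped them. The 95% intervals of its difference from control were -0.02 to 0.11 at 70 min (limma adjusted p = 0.378), -0.07 to 0.06 at 4 h and -0.03 to 0.10 at 8 h.

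Hsph1, the gene of the HSP110 protein HSP105 and a textbook target of HSF1, read 8.56, 8.67 and 8.64 in the controls, 8.70, 8.60 and 8.32 at 70 min, 8.46, 8.46 and 8.32 at 4 h, and 8.61, 8.61 and 8.69 at 8 h. The 4 h arrays lay below the controls, and the others overlapped them. Its differences were -0.08 at 70 min (95% interval -0.27 to 0.10) and -0.21 at 4 h (-0.39 to -0.03, limma adjusted p = 0.247). Hspa2, an HSP70 best known from the testis, read 6.25, 6.25 and 6.46 in the controls, 6.48, 6.31 and 6.24 at 70 min, 7.01, 6.92 and 6.42 at 4 h, and 6.67, 6.48 and 6.47 at 8 h. At 4 h replicates 1 and 2 stood above all controls and replicate 3 among them. The 4 h difference of 0.47 ± 0.14 was not called (limma adjusted p = 0.0746), but without 4 h replicate 3 the adjusted p was 0.00593.

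Hsp90ab1, the constitutive cytosolic HSP90, which holds kinases and steroid receptors, measured 10.89, 10.66 and 10.78 in the controls and 10.69, 10.56 and 10.59 at 70 min. It measured 10.86, 10.87 and 10.67 at 4 h and 10.81, 10.92 and 10.69 at 8 h. Treated arrays overlapped the controls at every time. The difference at 70 min was -0.16 (95% interval -0.31 to -0.01, limma adjusted p = 0.147), and at 4 h it was 0.02 (-0.13 to 0.17).

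Among the 7 small HSP genes, Hspb1 rose and Hspb6 fell at 70 min. Hspb1 encodes HSP27, which caps actin filaments and holds unfolded proteins. It measured 9.10, 9.10 and 9.12 in the controls, 9.48, 9.54 and 9.43 at 70 min, 9.60, 9.31 and 9.32 at 4 h, and 9.47, 9.22 and 9.06 at 8 h. The 70 min and 4 h arrays lay above the controls, and the 8 h arrays spread on both sides. Hspb1 rose by 0.37 ± 0.09 at 70 min (limma adjusted p = 0.00984) and differed by 0.30 ± 0.09 at 4 h (adjusted p = 0.0855). The 70 min call was lost with the arrays centred on their medians (adjusted p = 0.0648).

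Hspb6, which encodes HSP20, a small HSP of muscle, measured 9.41, 9.33 and 9.43 in the controls, 8.88, 8.99 and 9.01 at 70 min, 9.24, 9.11 and 9.19 at 4 h, and 9.51, 9.46 and 9.38 at 8 h. It was lowest at 70 min, lower than every control at 4 h and overlapped the controls at 8 h. Hspb6 fell by 0.43 ± 0.06 at 70 min (limma adjusted p = 0.00015), and its 4 h difference was -0.21 (adjusted p = 0.0838).

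Hspb8, the partner of BAG3 in the removal of damaged filament proteins, measured 6.72, 6.69 and 6.70 in the controls, 6.73, 6.52 and 6.56 at 70 min, 6.93, 6.93 and 7.07 at 4 h, and 7.19, 6.92 and 7.03 at 8 h. All 4 h and 8 h arrays lay above all controls. Neither difference was called, 0.27 at 4 h (limma adjusted p = 0.155) and 0.34 ± 0.10 at 8 h (adjusted p = 0.581). Hspb7, a small HSP of heart muscle, was dim: 5.02, 5.10 and 5.10 in the controls, 4.94, 5.22 and 4.69 at 70 min, 4.75, 5.12 and 4.88 at 4 h, and 4.94, 4.87 and 4.95 at 8 h. Its 8 h arrays lay below the controls, and no comparison passed the test.

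**Figure D4:**
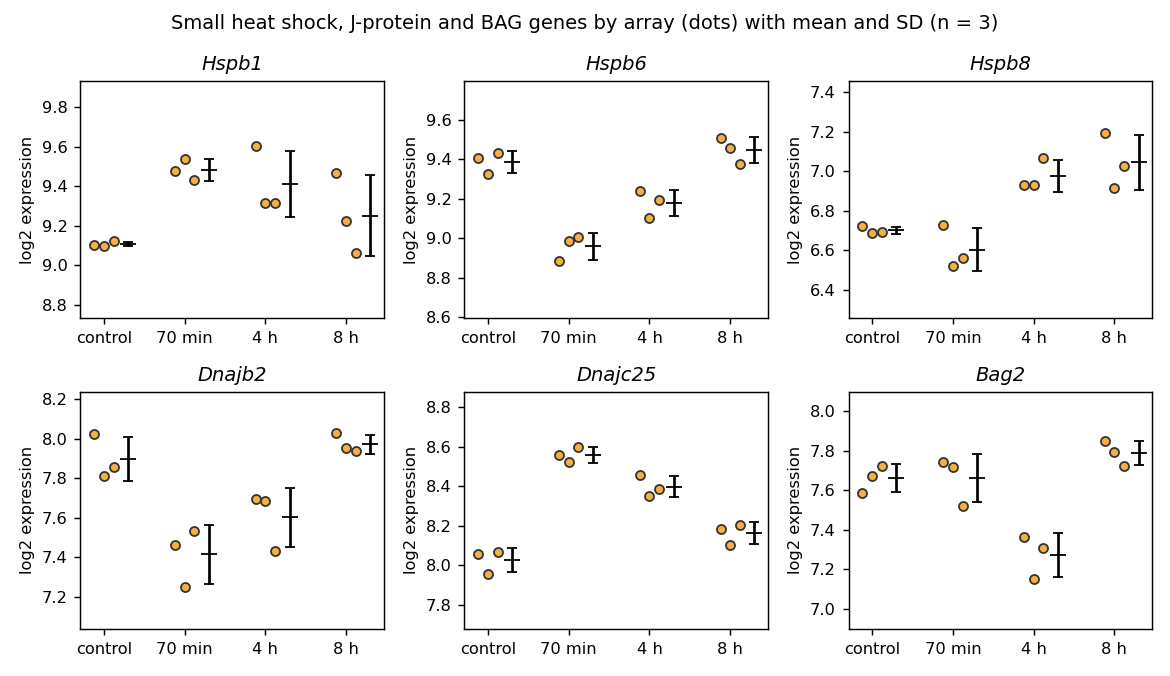
Points are the log2 expression of small HSP and J protein genes on each of the 12 arrays, in 4 groups of 3, and bars mark the group means. Hspb6 lies between 8.88 and 9.01 at 70 min, below its controls (9.33 to 9.43).

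The J proteins form the largest group with 38 genes, of which 1 rose and 3 fell at 70 min. The share called, 10.5%, lay below the 14.6% of all genes. The 24 Dnajc genes had a median difference of -0.17, and 8 of the 24 were positive. Dnajc25, which encodes a J protein of the ER membrane, measured 8.06, 7.96 and 8.07 in the controls, 8.56, 8.52 and 8.60 at 70 min, 8.46, 8.35 and 8.39 at 4 h, and 8.19, 8.10 and 8.21 at 8 h. Every treated array lay above every control. Dnajc25 rose by 0.53 ± 0.07, 1.45-fold, at 70 min (limma adjusted p = 4.12e-05) and by 0.37 ± 0.07 at 4 h (adjusted p = 0.00392).

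Dnajb2, the J protein HSJ1 that delivers proteins to the proteasome, measured 8.02, 7.81 and 7.86 in the controls, 7.46, 7.25 and 7.53 at 70 min, 7.69, 7.69 and 7.43 at 4 h, and 8.03, 7.95 and 7.94 at 8 h. Arrays at 70 min and 4 h lay below the controls, and those at 8 h overlapped them. Dnajb2 fell by 0.48 ± 0.10 at 70 min (limma adjusted p = 0.00218). Dnajc18, an ER membrane J protein gene, measured 8.61, 8.63 and 8.70 in the controls, 8.25, 8.23 and 8.20 at 70 min, 8.55, 8.65 and 8.44 at 4 h, and 8.73, 8.70 and 8.57 at 8 h. Its 70 min arrays stood apart below all others, and it fell by 0.42 ± 0.07 (limma adjusted p = 0.000531). Dnajc4 fell by 0.25 ± 0.08 (adjusted p = 0.0497), a call lost when any one of the 6 arrays compared was left out.

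Dnajb1 encodes HSP40, the J partner of the inducible HSP70. It read 6.85, 6.94 and 6.66 in the controls, 7.33, 7.12 and 6.94 at 70 min, 6.86, 6.81 and 6.90 at 4 h, and 7.04, 6.98 and 6.89 at 8 h. At 70 min replicates 1 and 2 stood above the controls, and replicate 3 equalled the highest control to 2 decimals. The difference of 0.31 ± 0.11 was not called (95% interval 0.09 to 0.54, limma adjusted p = 0.0595), and without 70 min replicate 3 the adjusted p was 0.0258. It was also called with the replicate number as a block (0.0477), with quantile normalization (0.0204) and with brighter genes alone (0.035). The other alternatives that keep more than 1 array at 70 min did not call it. Dnaja1, the J protein HDJ2 of the cytosol, read 10.61, 10.80 and 10.77 in the controls, 10.74, 10.62 and 10.60 at 70 min, 10.58, 10.58 and 10.65 at 4 h, and 10.68, 10.84 and 10.85 at 8 h. Its groups overlapped at every time, with 95% intervals against control of -0.20 to 0.06 at 70 min and -0.25 to 0.01 at 4 h.

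Of the 5 BAG genes none was called at 70 min. Bag3, whose protein directs damaged filament proteins to autophagy, read 8.19, 8.21 and 8.31 in the controls, 8.40, 8.55 and 8.32 at 70 min, 8.42, 8.20 and 8.26 at 4 h, and 8.55, 8.33 and 8.27 at 8 h. The 70 min arrays lay just above the controls. The difference was 0.18 (95% upper bound 0.37, limma adjusted p = 0.186).

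The genes of the heat shock factors did not pass the test. Hsf1, the main stress-activated factor, read 7.20, 7.19 and 7.17 in the controls, 7.23, 7.26 and 7.14 at 70 min, 7.15, 7.11 and 6.95 at 4 h, and 7.47, 7.18 and 7.01 at 8 h. Its arrays at 4 h lay below the controls, and the others overlapped them. The 70 min difference was 0.02 (95% interval -0.20 to 0.24, limma adjusted p = 0.919), and with centred arrays it was -0.03. Hsf2 read 7.78, 7.51 and 7.66 in the controls, 7.98, 7.26 and 7.51 at 70 min, 7.88, 7.88 and 7.36 at 4 h, and 7.32, 7.67 and 7.80 at 8 h, with every group overlapping the controls. HSF1 is mainly controlled by its protein state, which arrays of RNA do not measure.

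**Figure D5:**
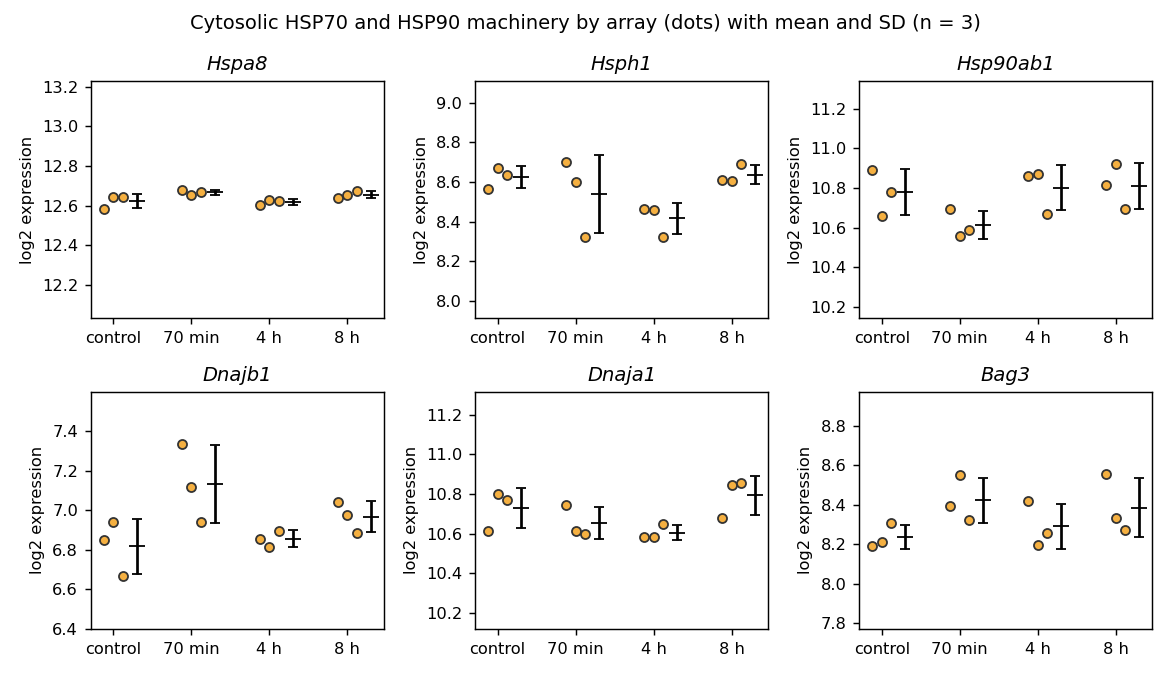
Points are the log2 expression of Hspa8, Hsph1, Hsp90ab1, Dnajb1, Dnaja1 and Bag3 on each of the 12 arrays. The arrays stand in 4 groups of 3, with bars for the group means. The stress-inducible Hspa1a, Hspa1b and Hsp90aa1 were not analysed. Hspa8 stays between 12.58 and 12.68, and Dnajb1 at 70 min spans 6.94 to 7.33.

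The 6 genes with the 3-unit element differed among themselves at 70 min. Hspd1 and Hspe1, which share 1 stretch of DNA, rose. Hspa8, Hsph1, Dnaja1 and Cct4 were not called, with differences of 0.05, -0.08, -0.07 and 0.12. The promoters of Tcp1 and Dnajc25, which rose at 70 min, were searched too and held no match within this window. Nor was the 3-unit element found for any other gene that rose, though promoters were given for 64 of the 77 genes only. Of the shorter pairs, GAANNTTC stood at Hspa9 and Hspb1, which rose, and at Hspb6 and Dnajc18, which fell. TTCNNGAA stood at Hspa9, Cct5 and Cct6a, which rose, and at Hspb6, which fell.

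After 4 h of SIN-1 fewer genes were called, and both HSP60/HSP10 genes and 3 of 8 CCT ring genes rose. Of the 77 genes 8 were called (10.4%) in limma's test, against 3.85% of all genes. The 7 that rose, 9.09% against 2.08% of all genes, were Dnajc25, Hspd1, Hspe1, Cct8, Tcp1, Cct7 and Hspa9. The 1 that fell, against 1.77% of all genes, was Bag2. Among genes above the median level 7.05% of all genes were called and 3.86% rose, and of the 58 chaperone and heat shock genes 13.8% were called and 12.1% rose. The 7 that rose had also risen at 70 min, but both comparisons use the same controls. In the other families 1 of 10 HSP70/HSP110 genes and 1 of 38 J protein genes rose. By location, 3 of 8 mitochondrial genes, 1 of 9 ER genes and 4 of the 60 others (6.67%) were called, and 5% of the 60 rose. The median difference over the 77 was 0.05, beside 0.01 over all genes. The 4 h and control arrays did not overlap for 27 of the 77, and for 3689 of all 18166 genes (20.3%).

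Bag2, whose protein inhibits the ubiquitin ligase CHIP, measured 7.59, 7.67 and 7.72 in the controls, 7.74, 7.72 and 7.52 at 70 min, 7.36, 7.15 and 7.31 at 4 h, and 7.85, 7.79 and 7.72 at 8 h. The 4 h arrays stood below all others, and Bag2 fell by 0.39 ± 0.09 (limma adjusted p = 0.0174). Fewer of the 4 h calls than of the 70 min calls were made in every alternative analysis. Of the 8 calls 1, that of Dnajc25, was made in all 16 alternative analyses, and of the 17 at 70 min 10 were. With the arrays centred on their medians, or with a limma fit without an intensity trend, Dnajc25 alone was called at 4 h. Shares of all genes called in these analyses are not given here, so the lost calls are not read as particular to these genes. The call of Bag2 was lost without 4 h replicate 2 (adjusted p = 0.0778), control replicate 2 (0.0720) or control replicate 3 (0.0851). Hspd1 at 4 h was lost without 4 h replicate 2 (0.119) or without any 1 control, up to 0.156. Tcp1 was lost without 4 h replicate 1 (0.129) or 3 (0.0909), or control replicate 1 (0.0810) or 2 (0.199). Hspe1 was lost without 4 h replicate 1 (0.0529) or 3 (0.0744), or control replicate 1 (0.0880) or 2 (0.0750). Cct7 was lost without 4 h replicate 1 (0.0776) or 3 (0.119), or without any 1 control, up to 0.124. Hspa9 was lost without 4 h replicate 2 (0.0608) or 3 (0.0538), or without any 1 control, up to 0.0748. Among cell type markers at 4 h, Atp2a2 rose (0.24), Pln fell by 0.44, Col3a1 fell by 0.18 and Pdgfrb fell by 0.49; their part in these results was not tested.

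After 8 h no chaperone or heat shock gene was called in limma's test, against 0.0275% of all genes (5 genes). At an unadjusted p under 0.05 there were 8 of the 77, against 993 of all 18166 genes (5.47%). The differences ranged from -0.35 to 0.34 with a median of 0.06, beside 0.01 over all genes. Hspa4 and Tcp1, which rose at 70 min, differed from control by -0.01 and 0.01. Hspb6, which fell at 70 min, differed by 0.06. For Hspe1, Hspa9 and Dnajc25, which also rose at 70 min, every 8 h array still lay above every control. The 8 h and control arrays did not overlap for 12 of the 77, and for 2401 of all 18166 genes (13.2%).

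The time points were also compared with each other. Between 8 h and 70 min 17 of the 77 genes were called (22.1%), against 16.0% of all genes, with 9 higher and 8 lower at 8 h, beside 9.56% and 6.43% of all genes. Hspd1 fell by 0.58 (limma adjusted p = 2.96e-05), Hspa4 by 0.49 (8.59e-06), Tcp1 by 0.48 (0.000139), Hspbp1 by 0.40 (0.00709) and Dnajc25 by 0.40 (0.000566). Dnajb2 rose by 0.56 (0.000582), Dnajc6 by 0.53 (0.0159), Hspb6 by 0.49 (3.72e-05), Dnajc22 by 0.45 (0.0217) and Hspb8 by 0.44 (0.00408). With array medians entered as a covariate, the split was 5 higher and 7 lower. Shares of all genes called in the alternative fits of this paragraph are not given here. Their splits are therefore not read as particular to these genes. Between 4 h and 70 min 6 were called (7.79%), against 7.63% of all genes, with 4 higher and 2 lower at 4 h, beside 4.48% and 3.15% of all genes. The split was 3 higher and 4 lower with quantile normalization, 4 and 0 with centred arrays, and 2 and 5 with the median as a covariate. Between 8 h and 4 h 7 were called (9.09%), against 3.51% of all genes, with 4 higher and 3 lower at 8 h, beside 1.97% and 1.54% of all genes, and with centred arrays 1 higher. Across all 4 groups limma's F test called 19 of the 77 (24.7%), against 15.3% of all genes. In none of the 6 comparisons of groups were 53 of the 77 called, and the same share over all genes is not given here.

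The wider proteostasis network was read from lists of co-chaperones, prefoldin, mitochondrial partners, ER chaperones, and crystallins with regulators of HSF1. Of their 48 measured genes 5 rose and 1 fell at 70 min (12.5%, against 14.6% of all genes), and 2 rose at 4 h (4.17%, against 3.85%). These shares lie near those of all genes, so the genes below are given one by one. At 8 h limma called none of the 48, and 3 had an unadjusted p under 0.05. Of 8 ER chaperone genes Hspa5, the gene of the ER HSP70 called BiP, rose at 70 min by 0.42 ± 0.04 (limma adjusted p = 2.9e-06) and at 4 h by 0.23 (0.004). Of 11 mitochondrial partners Lonp1, the gene of the matrix protease, rose at 70 min by 0.41 (0.000289) and at 4 h by 0.28 (0.021), and Hscb, the iron-sulphur cluster J protein gene, fell at 70 min by 0.45 (0.0317). Of 17 co-chaperones Fkbp4 (0.29, 0.0372) and Fkbp5 (0.30, 0.0493), immunophilins that work with HSP90, rose at 70 min. Of 6 crystallin and regulator genes Cryab, the alpha B-crystallin gene, rose at 70 min (0.16, 0.0282), and of 6 prefoldin genes, whose products hand actin and tubulin to CCT, none was called. Hspa5 and Lonp1 at 70 min were called in 16 of 16 alternative analyses, Hscb in 9, Cryab in 8, and Fkbp4 and Fkbp5 in 7 each. At 4 h Hspa5 was called in 14 of 16 and Lonp1 in 9 of 16 (highest limma adjusted p = 0.119).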

How the data were processed

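RNA of 12 samples (4 groups of 3) was hybridised to 1-colour whole-transcript arrays. The deposited table holds log2 values. According to the submitters' processing notes, the authors used RMA and Affymetrix Expression Console (version 1.3.1.187). The log2 scale was inferred from the values, and the sources used here do not give any filter. RMA corrects background, equalises the arrays' distributions and summarises probes, which can compress fold changes. The number of arrays limits the precision.

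Of 36685 probes 18511 carried 1 gene symbol, 575 several, and 17599 are unnamed here; the brightest probe of each gene was kept (18166 genes). The differences were tested with limma 3.58.1 (R 4.3.3; lmFit, eBayes with trend, 8 residual degrees of freedom, median SE 0.131) on all 12 arrays, with Benjamini-Hochberg adjustment over all genes. The fit was tested on simulated data for 70 min against control (18166 genes), where 91.0% of 67 genes changed by 1, 43.3% of 67 changed by 0.5 and 10.6% of 66 changed by 0.3 were recovered. In that simulation 9 unchanged genes were called. Far fewer genes were changed there than were called in the data at 70 min (2647). The adjusted p depends on that share, so these rates are not those of the real comparison. Genes named are those called, the 5 largest each way between times, and a fixed list of well-known members. Members, lists and tests were chosen with earlier results of these data known. Alternatives were array scaling, fit options, probe choice and arrays left out.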

Additional observations from a re-analysis of the deposited data

Results flagged for a closer look

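The effects of SIN-1 at different times were compared directly, so that the shared controls cancel, and the members below differed between times in limma's test at an adjusted p under 0.05. At 4 h compared with 70 min, the log2 difference was positive for Dnajc6 (0.49), Hspb8 (0.37), Dnajc18 (0.32) and Hspb6 (0.22). It was negative for Bag2 (-0.39) and Hspa4 (-0.29). At 8 h compared with 4 h, the log2 difference was positive for Bag2 (0.52), Dnajb4 (0.40), Dnajb2 (0.37) and Hspb6 (0.27). It was negative for Hspd1 (-0.35), Cct8 (-0.31) and Tcp1 (-0.27). At 8 h compared with 70 min, the log2 difference was positive for Dnajb2 (0.56), Dnajc6 (0.53), Hspb6 (0.49), Dnajc22 (0.45), Hspb8 (0.44), Dnajc18 (0.44), Dnajc15 (0.31), Dnajc4 (0.30) and Hspb2 (0.28). It was negative for Hspd1 (-0.58), Hspa4 (-0.49), Tcp1 (-0.48), Hspbp1 (-0.40), Dnajc25 (-0.40), Cct8 (-0.38), Cct3 (-0.25) and Cct7 (-0.24). The share of all genes that kept a call is not given here, so the counts that follow are not read as particular to these genes. In every alternative analysis run, 0 of the 6 calls between 4 h and 70 min, 1 of the 7 between 8 h and 4 h (Bag2) and 8 of the 17 between 8 h and 70 min were made.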

How the results depend on the processing

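The calls of chaperone and heat shock genes numbered 17 at 70 min, 8 at 4 h and 0 at 8 h. They changed by over 1.5 times in these analyses. With arrays centred on their medians, 1 was called at 4 h, 1 between 8 h and 4 h and 11 by the F test. Without the intensity trend, 1 was called at 4 h and 1 between 8 h and 4 h. With brighter genes alone, 10 were called between 4 h and 70 min. With the compared groups alone, 2 were called between 4 h and 70 min and 3 between 8 h and 4 h. Without the 3 arrays of highest median, an analysis chosen after seeing the data, 5 were called at 4 h and 4 between 8 h and 4 h. Counts with 70 min moved too, but 1 array is left there, so they are not given. Shares of all genes called in each analysis are not set beside the counts of this paragraph. The counts therefore do not show whether chaperone genes changed more than other genes. The cause was not tested. Leaving out 1 array at a time gave the ranges below, with the 4 h count moving over 1.5 times without control replicate 1 (3), 2 (2) or 3 (4) or 4 h replicate 3 (5). Between 4 h and 70 min 3 were called without 70 min replicate 3 or 4 h replicate 2, and between 8 h and 4 h 3 without 4 h replicate 2 or 3, 2 without 8 h replicate 2 and 4 without 8 h replicate 3. The ranges were 13 to 18 calls at 70 min, 2 to 6 at 4 h, 0 to 0 at 8 h, 3 to 8 between 4 h and 70 min, 2 to 7 between 8 h and 4 h, 13 to 19 between 8 h and 70 min, and 15 to 21 by the F test. Of 68 named differences from control, 18 turned sign in at least 1 analysis, and 0 of these were called. Replicate numbers did not pair the arrays: same-numbered deviations correlated at -0.32 to 0.24, 5 of 18 pairs were over 0.1, and 4 of 12 arrays correlated best with their own number. With the replicate number as a block the counts were 18, 9 and 0 at 70 min, 4 h and 8 h, and 7, 7 and 18 between 4 h and 70 min, 8 h and 4 h, and 8 h and 70 min, and 20 by the F test.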

Other observations

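Several members moved between treated groups without a call against control. Dnajc6, the gene of auxilin, which strips clathrin from vesicles, was dim, at 4.88, 5.15 and 5.11 in the controls and 4.44, 4.85 and 4.81 at 70 min. At 4 h it measured 5.17, 5.36 and 5.04, and at 8 h 5.11, 5.32 and 5.25. The 70 min arrays were the lowest and did not overlap the other groups. Dnajc15, a J protein gene of the mitochondrial import motor, measured 7.24, 7.22 and 7.23 in the controls, 7.19, 6.998 and 6.96 at 70 min, 7.28, 7.33 and 7.15 at 4 h, and 7.48, 7.38 and 7.23 at 8 h. Its 70 min arrays lay below the controls, with replicate 1 nearest to them.

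Dnajb4 had probes that differed. The brighter one gave 0.05 at 70 min (limma adjusted p = 0.774), and the dimmer one -0.48 (adjusted p = 0.0348), so the direction at 70 min is uncertain. Against control both probes were negative at 4 h (-0.22 and -0.31) and positive at 8 h (0.18 and 0.10), with no call.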
